A study of Homo sapiens with 6 samples.

Results

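Adhesion G protein-coupled receptors were followed in THP-1 cells from 2 cell banks through 10 listed genes, ADGRE1, ADGRE2, ADGRE3, ADGRE5, ADGRA2, ADGRA3, ADGRG1, ADGRG3, ADGRG5 and ADGRL1, of the 34893 genes with a summed count. They were chosen by name, with the estimated counts and TPM of the same comparison between banks already known, so their differences are descriptions. Where the fit over all genes called a listed receptor, the call is counted as part of that description and not as a test of it. The other 23 genes of the receptor family that were looked up make 33 in all. THP-1 cells are a line of human acute monocytic leukaemia. One group of 3 libraries was made from THP-1 cells supplied by ATCC and the other group of 3 from THP-1 cells supplied by DSMZ. Both groups were untreated and carried no engineered change in the labels. Both were grown side by side at 37 °C and 5% CO2 in RPMI with 20% FBS for 48 h, then split and grown for 24 h, and were harvested in log phase, each replicate from its own expansion. Each group stands for the cells of 1 line as received from 1 bank, so bank and stock cannot be told apart. RNA with poly(A) tails was sequenced from each culture.

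Adhesion G protein-coupled receptors carry a long extracellular region, a membrane-proximal GAIN domain in which many members cleave themselves, and a membrane-spanning receptor region. A stretch exposed after the cleavage acts as a tethered agonist, and many members signal through G proteins, G12 and G13 among them. On white blood cells the E group, with EGF-like repeats at its outer end, marks monocytes, macrophages and granulocytes. The A group works with RECK in WNT7 signalling (ADGRA2) or is an orphan (ADGRA3), the G group holds ADGRG1, ADGRG3 and ADGRG5, found on white blood cells, and the L group holds ADGRL1, the latrophilin that binds teneurins and FLRT proteins.

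The EGF-like repeats of ADGRE5 (CD97) and ADGRE2 (EMR2) are shown first, because reads of these exons can fit either gene and because ADGRE5 forms differ by 2 of them. ADGRE5 lies at chr19:14380501-14408725 on the plus strand and ADGRE2 at chr19:14732393-14778541 on the minus strand (GRCh38). Coding exons 5 and 6 each encode 1 EGF-like repeat. Below they are given 5′ to 3′ on the coding strand, and capitals mark the bases that differ between the genes.
ADGRE5 coding exon 5, chr19:14396342-14396473, plus strand: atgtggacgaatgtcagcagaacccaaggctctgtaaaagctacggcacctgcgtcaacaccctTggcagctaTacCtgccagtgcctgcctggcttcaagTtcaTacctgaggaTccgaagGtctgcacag
ADGRE2 coding exon 5, chr19:14766978-14767109, minus strand: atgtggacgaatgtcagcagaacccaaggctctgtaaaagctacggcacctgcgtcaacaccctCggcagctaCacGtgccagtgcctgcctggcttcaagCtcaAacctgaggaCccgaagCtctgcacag
ADGRE5 coding exon 6, chr19:14397077-14397223, plus strand: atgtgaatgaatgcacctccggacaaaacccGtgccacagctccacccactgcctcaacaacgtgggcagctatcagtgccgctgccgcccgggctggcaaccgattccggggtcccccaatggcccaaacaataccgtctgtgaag
ADGRE2 coding exon 6, chr19:14766235-14766381, minus strand: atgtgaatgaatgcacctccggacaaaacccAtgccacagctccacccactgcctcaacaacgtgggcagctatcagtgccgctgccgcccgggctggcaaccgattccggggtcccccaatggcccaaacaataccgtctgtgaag
Exon 5 differed at 7 of 132 bases and exon 6 at 1 of 147, while exons 7 and 8 were identical over 147 and 47 bases. Coding exons 2, 3 and 4 had 100, 97.4 and 98.1% identity, and coding exon 9 had 88.5%. Farther along the genes were less alike, with 45.7 to 63.9% identity in coding exons 10, 11, 16, 17 and 18. Coding exons of unequal length were not compared. Of the distinct 31-base words of the longest ADGRE5 form (835 codons), 557 of 3158 (17.6%) also occurred in the main ADGRE2 form (823 codons), where they were 8.27% of 6737. Counts of ADGRE5 and ADGRE2 are therefore uncertain in how the reads of these exons were divided.

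The third sequence bears on ADGRL1, whose 2 main transcripts differ by a short exon. ADGRL1 lies at chr19:14147743-14206187 on the minus strand, and the exon at chr19:14167016-14167030. It is shown with 15 bases of transcript on each side, capitals marking the 15 bases of the exon, which only the longer form of the pair contains.
ADGRL1 short exon with flanks, minus strand: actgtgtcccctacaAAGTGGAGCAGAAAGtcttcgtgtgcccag
All sequences were cut from the GENCODE 29 transcript sequences at the exons that GENCODE 29 annotates, with coordinates on GRCh38.

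The libraries held between 23413428 and 37119721 estimated counts. One of them, ATCC replicate 2, was unlike ATCC replicates 1 and 3. Its genes of lowest GC content (the lowest of 10 groups) deviated from them by a median of -0.94 on the log2 scale and those of highest GC content by 0.35. The labelled cell type was checked on 12 myeloid markers, none of which was at 0 in any bank. Their summed level was 2270 to 2790 CPM (counts scaled to library size times its TMM normalization factor) in ATCC and 2140 to 2360 in DSMZ. In bulk RNA, fewer cells expressing a gene and less RNA per cell cannot be told apart.

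Levels of different receptors were compared in TPM, which is scaled by transcript length. In ATCC libraries ADGRA2 was highest at 54.5 ± 5.79 TPM (SD, n = 3), followed by ADGRE5 at 45.5 ± 2.43 TPM and ADGRA3 at 32.6 ± 4.28 TPM. ADGRL1 at 19.5 ± 0.733 TPM, ADGRG5 at 9.97 ± 1.06 TPM and ADGRE2 at 3.12 ± 0.255 TPM came next. These 6 receptors did not overlap with their neighbours in the order. ADGRG1, ADGRE1 and ADGRG3 had means of 0.479, 0.171 and 0.154 TPM, their libraries overlapped from each to the next, and ADGRE3 was last. The ADGRG1 value rests on 4 counts on transcripts of 548 and 315 bases, whose short length raises TPM. By mean CPM ADGRG1 was below both, at 0.0483 beside 0.372 for ADGRE1 and 0.217 for ADGRG3. The ADGRL1 value also includes transcripts of 791 and 612 bases, with 1.93 and 2.39% of its counts in ATCC. The main forms of ADGRL1, described below, were at 5.59 and 4.57 TPM. Its place above ADGRG5 is therefore not shown for these forms.

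In DSMZ libraries the order changed at the top. ADGRE5 led at 52.8 ± 2.45 TPM (SD, n = 3), before ADGRA3 at 22.0 ± 1.73 TPM and ADGRL1 at 12.7 ± 1.18 TPM. ADGRG5 at 9.95 ± 1.45 TPM, ADGRE2 at 7.73 ± 0.278 TPM and ADGRA2 at 3.21 ± 0.274 TPM followed, again without overlap between neighbours. Then came ADGRE1 at 0.933 ± 0.0623 TPM, ADGRG3 and ADGRG1 at 0.619 and 0.574 TPM, which overlapped, and ADGRE3 at 0. ADGRG1 again had only 4 counts, beside 89 for ADGRG3. The ADGRL1 value again includes the short transcripts, with its main forms at 5.26 and 2.49 TPM, so its place above ADGRG5 is not shown for these forms. ADGRA2 thus moved from the first place in ATCC to the sixth in DSMZ. Its share of the summed TPM of the 10 genes was 32.8 ± 2.65% in ATCC and 2.90 ± 0.205% in DSMZ. The sum itself was 166 ± 4.57 TPM in ATCC and 110.5 ± 5.23 TPM in DSMZ, and ADGRE5 held 27.4 ± 0.951% and 47.8 ± 0.122% of it.

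**Figure D1:**
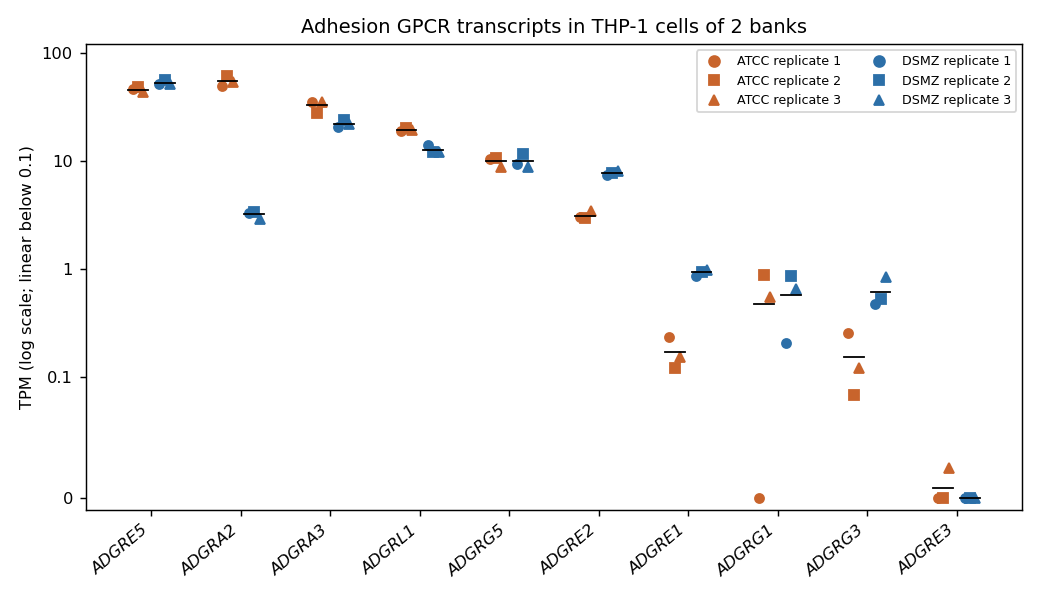
TPM of the 10 listed receptors in each library on a log axis, 3 ATCC and 3 DSMZ libraries per gene. ADGRA2 sits between 49.4 and 60.8 TPM in ATCC and between 2.89 and 3.40 TPM in DSMZ, the widest separation among the listed genes.

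Fold changes are DSMZ minus ATCC on the log2 scale of estimated counts, so positive values are higher in DSMZ. Of the 10 receptors 8 had enough counts to be tested. Of these, 6 had an adjusted p under 0.05 in edgeR's quasi-likelihood fit over all genes, 3 higher in DSMZ (ADGRE1, ADGRE2, ADGRG3) and 3 higher in ATCC (ADGRA2, ADGRA3, ADGRL1). ADGRG3 reached the filter on low counts in the DSMZ libraries only, so it could be called only as higher in DSMZ. Over all 14569 tested genes 49.8% passed, 24.1% higher in DSMZ and 25.7% higher in ATCC, and nothing is read from the receptors' count because they were listed with this comparison known. The same 6 did not overlap between banks in CPM, beside 62.4% of all tested genes (31.6% higher in DSMZ and 30.7% higher in ATCC). The median log2 fold change of the 8 was 0.13, beside 0.01 for all tested genes. Without ATCC replicate 2, ADGRE5 was also called (higher in DSMZ), beside 64.0% of tested genes, 31.7% higher in DSMZ and 32.3% higher in ATCC. With an offset for GC content ADGRE5 was called as well, beside 64.5% of tested genes, 32.0% higher in DSMZ and 32.5% higher in ATCC.

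Among the receptors of the E group, ADGRE2, a myeloid receptor for chondroitin sulfate, was higher in DSMZ. Its level was 12.1, 12.6 and 12.2 CPM in ATCC replicates 1, 2 and 3 and 29.5, 29.1 and 31.7 CPM in DSMZ replicates 1, 2 and 3. Its log2 fold change was 1.29 (SE 0.10). Every DSMZ library lay above every ATCC library, and the ATCC libraries were close together, ATCC replicate 2 included. The fold change ranged from 1.19 to 1.36 over 19 alternative settings.

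ADGRE1, a receptor of macrophages and eosinophils, was low in both banks and higher in DSMZ. It had 14, 7 and 10 counts in the ATCC libraries and 38, 47 and 77 in the DSMZ libraries, or 0.494, 0.265 and 0.357 CPM against 1.65, 1.66 and 2.14 CPM. The log2 fold change was 2.28 (SE 0.28) and no library of the banks overlapped. On the log2(TPM + 0.5) scale the difference was 1.10, where the added 0.5 is large beside the ATCC levels. The filter on low counts, 0.358 CPM, was reached by ADGRE1 in 2 ATCC and 3 DSMZ libraries. The eosinophil markers, a cell type in which ADGRE1 is known, summed to 0.286 to 0.812 CPM in ATCC and 1.30 to 1.81 CPM in DSMZ over 5 genes. Of these EPX accounted for most of the difference, at 0.0362 CPM in ATCC and 0.919 CPM in DSMZ. CCR3 had 0.328 and 0.441 CPM (edgeR adjusted p 0.442), SIGLEC8 0.171 and 0.174 CPM, PRG2 0.0706 and 0.0949 CPM, and CLC was at 0 in all libraries. Their part in the ADGRE1 level was not tested.

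ADGRE5, a leukocyte receptor for CD55, THY1 and integrins, was the most abundant listed receptor in DSMZ. It had 66.5, 86.4 and 63.5 CPM in ATCC libraries 1, 2 and 3 and 81.6, 84.3 and 87.6 CPM in DSMZ libraries. The log2 fold change was 0.23 (SE 0.13), and the banks overlapped, with ATCC replicate 2 as high as the DSMZ libraries. In TPM summed over all its transcripts they did not overlap, with 42.9 to 47.8 in ATCC and 51.3 to 55.7 in DSMZ. That sum includes short transcripts, whose length raises TPM. Each of the 3 long coding forms described below overlapped between banks in TPM. The separation is therefore not shown for any of these forms alone, and the part of the short transcripts in it was not tested. Without ATCC replicate 2 the log2 fold change was 0.39.

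ADGRE3, a granulocyte receptor at chr19:14619117-14690027 on the minus strand, was almost undetected. It had 1 count over the ATCC libraries, 0.0121 CPM with a 95% Poisson interval of 0.000306 to 0.0673, and 0 over the DSMZ libraries, which allows up to 0.0344 CPM at 3 counts or 0.0423 CPM at the upper Poisson limit. These intervals cover counting error only, and no fold is given.

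Of the A group, ADGRA2, an endothelial co-receptor for WNT7A and WNT7B with RECK, had the largest difference among the listed genes. It lies on chromosome 8. Levels were 225, 298 and 252 CPM in ATCC replicates 1, 2 and 3 and 16.1, 14.7 and 13.6 CPM in DSMZ replicates 1, 2 and 3. The log2 fold change was -4.13 (SE 0.14), a 17.5-fold higher mean CPM in ATCC. The libraries of the banks lay far apart, and the spread within each bank was small beside that gap. Over the 19 alternative settings the log2 fold change was -4.25 to -3.89.

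Most tested genes of chromosome 8 were lower in DSMZ. The median log2 fold change of its 469 tested genes was -0.86, with 69.7% passing the test higher in ATCC and 4.05% higher in DSMZ. ADGRA2 lay 3.27 below that median on the log2 scale, and 9 of the 469 had a lower fold change. Over all chromosomes 137 tested genes (0.94%) had a lower one. For comparison, the median was 0.03 on chromosome 4 (ADGRA3), -0.09 on chromosome 16 (the listed ADGRG genes) and -0.03 on chromosome 19 (ADGRL1 and the E group). The part of chromosome 8 in the ADGRA2 difference was not tested. The 3 tested genes whose centred log2(CPM + 0.5) over the 6 libraries was nearest to that of ADGRA2 were SPATA31C1, USH1C and KLHL29, at Euclidean distances of 0.327, 0.403 and 0.424. The added 0.5 compresses low levels, and USH1C (10.6 CPM in ATCC, 0.0473 in DSMZ) and KLHL29 (8.82 and 0.0657 CPM) differed by more than ADGRA2 in CPM itself.

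ADGRA3, an orphan relative of ADGRA2 at chr4:22345071-22516054 on the minus strand, was also lower in DSMZ, by much less. Its level was 75.8, 64.2 and 76.9 CPM in ATCC libraries 1, 2 and 3 and 52.6, 48.1 and 49.2 CPM in DSMZ libraries. That gave a log2 fold change of -0.53 (SE 0.11). The lowest ATCC library, replicate 2, still lay above the highest DSMZ library.

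The 3 listed genes of the G group lie next to each other on chromosome 16 and did not move together. ADGRG5, an orphan receptor that couples to Gs, at chr16:57542421-57591681, had 26.6, 29.6 and 22.1 CPM in ATCC libraries and 25.1, 29.6 and 25.8 CPM in DSMZ libraries. Its log2 fold change was 0.04 (SE 0.14), the banks overlapped, and the sign changed in 5 of 19 alternative settings, over a range of -0.09 to 0.15. ADGRG3, a granulocyte receptor at chr16:57668187-57689378, had 7, 5 and 6 counts in ATCC libraries and 20, 23 and 46 in DSMZ libraries.

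ADGRG3 thus reached 0.217 ± 0.0291 CPM in ATCC and 0.987 ± 0.254 CPM in DSMZ (SD, n = 3). The log2 fold change was 2.18 (SE 0.31) with no overlap between banks. None of the ATCC libraries and all 3 DSMZ libraries reached the filter of 0.358 CPM, so ADGRG3 entered the fit only through the bank where it was high. On log2(TPM + 0.5) the difference was 0.77. The neutrophil markers, a cell type in which ADGRG3 is known, summed to 126 to 146 CPM in ATCC and 102 to 107 CPM in DSMZ over 5 genes, with FCGR3B at 0 in all libraries. Most of that sum was CSF3R, at 112 CPM in ATCC and 80.1 CPM in DSMZ, while CXCR2 had 24.1 and 23.9 CPM (edgeR adjusted p 0.914) and CXCR1 0.0364 and 0.0763 CPM. Their part in the ADGRG3 level was not tested.

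ADGRG1 (GPR56), a receptor of cytotoxic lymphocytes and of the brain at chr16:57610652-57665580, had 4 counts in each bank, 0.0483 CPM in ATCC (95% Poisson interval 0.0132 to 0.124) and 0.0458 CPM in DSMZ (0.0125 to 0.117). The gene was not tested, and no fold is given. Most of these counts were on transcripts of 548 and 315 bases, and none of the 77 listed transcripts with 687 or more codons had as much as 1 count in any library.

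ADGRL1 was lower in DSMZ by a small amount. It had 58.3, 67.5 and 58.5 CPM in ATCC libraries and 50.4, 47.7 and 49.6 CPM in DSMZ libraries. The log2 fold change was -0.32 (SE 0.10), with the highest DSMZ library below the lowest ATCC library. It was not called in 7 of 19 alternative settings, which included leaving out ATCC replicate 3 or any 1 of the DSMZ replicates, and its log2 fold change ranged from -0.62 to -0.23.

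The transcripts behind the receptor totals were compared as shares of each gene's estimated counts. kallisto divides shared reads by a model, so these shares are estimates. In ADGRL1 the longer form of 7853 bases and 1474 codons, with the short exon shown above, held 58.7, 60.6 and 62.6% in ATCC libraries and 72.5, 73.8 and 71.3% in DSMZ libraries. The form of 5610 bases and 1469 codons, without the exon, held 36.8, 35.2 and 32.4% in ATCC and 23.6, 23.1 and 25.7% in DSMZ. Neither overlapped between banks. The forms also differ in the length of their first and last exons, so the difference is not particular to the short exon. By TPM, the ADGRL1 form with the exon was at 5.59 ± 0.302 in ATCC and 5.26 ± 0.157 in DSMZ, and the form without it at 4.57 ± 0.452 and 2.49 ± 0.125 (SD, n = 3).

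In ADGRE5 the 3 long coding forms differ by the EGF-like exons printed above. The 835-codon form has exons 5 and 6, the 786-codon form exon 5 only, and the 742-codon form neither. By count the 835-codon form held 30.2 ± 5.71% in ATCC and 27.7 ± 3.22% in DSMZ, the 786-codon form 43.1 ± 0.378% and 41.7 ± 6.50%, and the 742-codon form 19.9 ± 5.01% and 23.2 ± 3.41%. All 3 overlapped between banks. Of the 3 forms by TPM, 76.3 ± 5.99% in ATCC and 72.3 ± 4.12% in DSMZ had exon 5 (SD, n = 3).

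In ADGRE2 the 823-codon form held 83.6 ± 2.66% in ATCC and 85.4 ± 2.71% in DSMZ (SD, n = 3), which overlapped. Its 831-codon form held 7.07 ± 0.720% and 3.95 ± 1.51% without overlap, from 21.6 to 41.2 counts a library. In ADGRA2 the 1338-codon form held 96.4 ± 0.279% in ATCC and 94.3 ± 3.53% in DSMZ. The more abundant 528-codon transcript of ADGRG5 held 85.1 ± 6.13% and 84.0 ± 2.81%, and the 1321-codon form of ADGRA3 67.2 ± 4.14% and 62.9 ± 3.17%. For ADGRG3 a transcript of 2317 bases annotated for nonsense-mediated decay took 0, 0 and 100% of the counts in ATCC libraries and 100, 62.1 and 43.8% in DSMZ libraries. With so few counts these shares cannot be ordered.

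**Figure D2:**
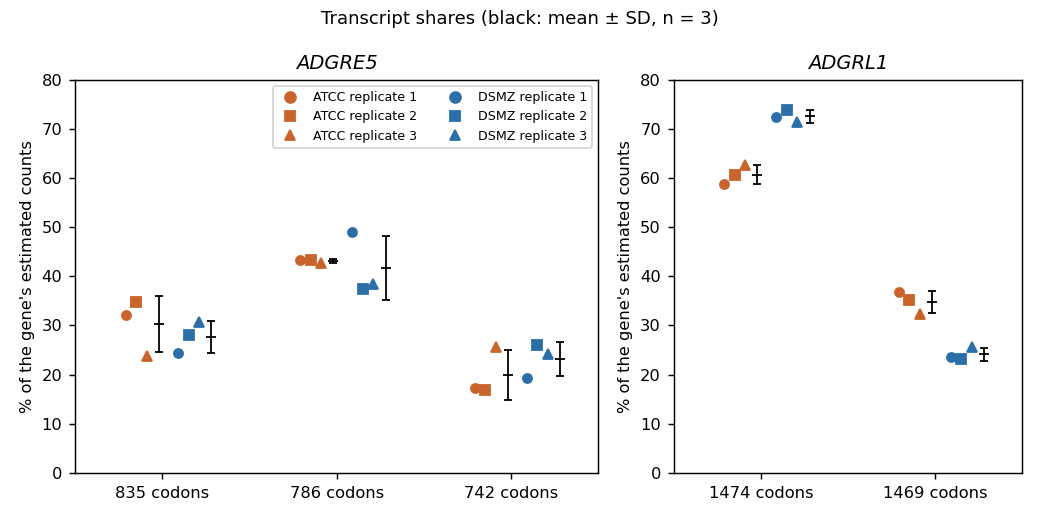
Share of each gene's estimated counts held by its main transcripts, per library and bank, with black bars for mean ± SD and forms named by their number of codons. The ADGRL1 form with the short exon sits at 58.7 to 62.6% in ATCC and 71.3 to 73.8% in DSMZ, while the 3 ADGRE5 forms overlap between banks.

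The other adhesion receptors were read from 23 further family genes, of which 14 were tested. Of these 8 passed edgeR's adjusted p of 0.05, 2 higher in DSMZ and 6 higher in ATCC, beside 49.8% of all tested genes, and their median log2 fold change was -0.25. CELSR3, an atypical cadherin receptor of axon guidance, rose from 2.60 ± 0.393 CPM in ATCC to 47.6 ± 2.19 CPM in DSMZ (log2 fold change 4.19, SE 0.14, edgeR adjusted p 2.97e-06). CELSR1, which acts in planar cell polarity, rose as well (1.22, SE 0.09, edgeR adjusted p 5.16e-05). ADGRL3, a latrophilin, fell from 146 ± 36.3 CPM to 37.0 ± 3.08 CPM (-1.98, SE 0.19, edgeR adjusted p 0.000166), and ADGRG6, known in Schwann cell myelination, fell from 19.7 ± 6.89 CPM to 3.48 ± 0.471 CPM (-2.50, SE 0.29, edgeR adjusted p 0.000334). In ATCC replicate 2, ADGRL3 was 63.3% and ADGRG6 50.5% of the mean of the other ATCC libraries, and both remained above every DSMZ library. ADGRB3, known in synapses, also fell (-1.51, SE 0.23, edgeR adjusted p 0.00131), though it did not pass the test on either TPM scale tried. The latrophilin ADGRL2 had 241 ± 68.1 CPM in ATCC and 274 ± 18.3 CPM in DSMZ (edgeR adjusted p 0.477).

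**Figure D3:**
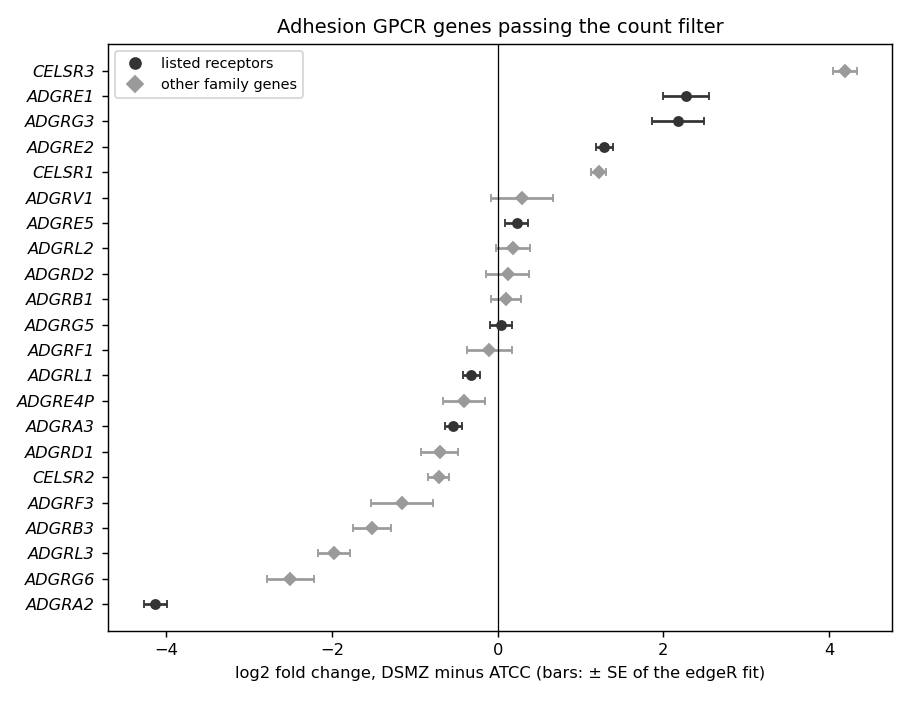
Log2 fold change, DSMZ minus ATCC, of each tested adhesion receptor with its SE, listed genes and other family genes. ADGRA2 (-4.13) and CELSR3 (4.19) lie at the ends.

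Of the 24 ligands and membrane partners 18 were tested and 11 passed edgeR's adjusted p of 0.05, 4 higher in DSMZ and 7 higher in ATCC, beside 49.8% of all tested genes (24.1% and 25.7%), with a median log2 fold change of 0.06. Partners of ADGRE5 differed among themselves. CD55, the complement regulator it binds, had 26.8 ± 1.76 CPM in ATCC and 28.1 ± 2.87 CPM in DSMZ (edgeR adjusted p 0.657), and the integrin subunit ITGA5 had a log2 fold change of 0.09 (edgeR adjusted p 0.603). THY1 had -0.73 (edgeR adjusted p 0.0662). The integrin subunit ITGB1 rose from 147 ± 45.8 CPM to 513 ± 2.27 CPM (1.80, SE 0.22, edgeR adjusted p 0.000442).

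RECK and WNT7B, with which ADGRA2 works, were lower in DSMZ, as ADGRA2 was. RECK, its membrane-anchored co-receptor, fell from 32.6 ± 6.52 CPM to 15.6 ± 1.31 CPM (log2 fold change -1.07, SE 0.17, edgeR adjusted p 0.00142). WNT7B fell from 21.6 ± 2.68 CPM to 6.13 ± 0.986 CPM (-1.81, SE 0.16, edgeR adjusted p 0.000114), while WNT7A had 1 count in ATCC and 0 in DSMZ. The scaffold DLG1, a partner of ADGRA2 and ADGRA3, had a log2 fold change of 0.23 (edgeR adjusted p 0.481).

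Partners of ADGRG1, itself near 0, moved in both directions. The tetraspanin CD9 rose (2.01, SE 0.19, edgeR adjusted p 0.000155), and the tetraspanin CD81 (-0.97, SE 0.11, edgeR adjusted p 0.000368) and the transglutaminase TGM2 (-1.43, SE 0.27, edgeR adjusted p 0.00348) fell. Its collagen ligand COL3A1 had 0 counts in ATCC and 3 in DSMZ. For ADGRL1, TENM2 had 0 counts in all libraries and FLRT3 a log2 fold change of 0.74 (edgeR adjusted p 0.137). The related TENM3 (-2.93, SE 0.24, edgeR adjusted p 7.74e-05) and FLRT2 (-1.91, SE 0.30, edgeR adjusted p 0.0016) fell. CHSY1, an enzyme that builds the chondroitin sulfate to which ADGRE2 binds, rose (0.82, SE 0.09, edgeR adjusted p 0.000218). Of the other chondroitin sulfate genes in the list, CHPF rose (0.74, SE 0.17, edgeR adjusted p 0.00865). CHST3 (0.24, edgeR adjusted p 0.301) and CHST11 (0.06, edgeR adjusted p 0.605) did not pass.

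Downstream of the receptors, G protein subunits and arrestins moved in both directions. GNA12, the G12 subunit, fell from 51.3 ± 3.79 CPM to 32.9 ± 2.98 CPM (-0.64, SE 0.11, edgeR adjusted p 0.00244). GNA13, its relative, had 123 ± 39.6 CPM in ATCC and 180 ± 6.62 CPM in DSMZ (0.55, edgeR adjusted p 0.0794). The alpha subunits GNAZ (-3.60, SE 0.30, edgeR adjusted p 8.72e-05), GNA14 (-3.08, SE 0.27, edgeR adjusted p 0.000111) and GNAI1 (-2.58, SE 0.26, edgeR adjusted p 0.000179) fell. The arrestin ARRB2 (1.20, SE 0.13, edgeR adjusted p 0.000263), the haematopoietic alpha subunit GNA15 (1.16, SE 0.11, edgeR adjusted p 0.000159) and GNAS (0.88, SE 0.08, edgeR adjusted p 0.000108) rose. The other arrestin, ARRB1, fell (-0.66, SE 0.13, edgeR adjusted p 0.00397).

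Genes starting within 500 kb of a listed receptor gave the local background. Around ADGRG5, ADGRG1 and ADGRG3, 20 of 44 neighbours were tested and 8 passed edgeR's adjusted p of 0.05 (3 higher in DSMZ, 5 in ATCC), or 5 without DSMZ replicate 2 or without DSMZ replicate 3. The median log2 fold change of the 20 was -0.08. Lowest were the kinesin KIFC3 (-1.87, SE 0.11, edgeR adjusted p 2.54e-05) and the chemokine CCL22 (-1.67, SE 0.18, edgeR adjusted p 0.000254). Highest was CCDC102A (1.15, SE 0.13, edgeR adjusted p 0.000297). Around ADGRE1, ADGRE2, ADGRE3 and ADGRE5, 37 of 109 were tested and 15 (40.5%) passed (6 higher in DSMZ, 9 in ATCC), with a median of -0.09. Without DSMZ replicate 2 or without DSMZ replicate 3, 9 passed. In these 2 settings calls over all genes fell as well, from 7261 to 5506 and 5665. ADGRE1 (2.28) and ADGRE2 (1.29) stood above these medians. Highest there were NOTCH3 (2.46), which did not pass on either TPM scale, AC119396.1 (1.60) and TNFSF9 (1.09), and lowest SLC25A41 (-2.27), TNFSF14 (-1.26) and GIPC1 (-0.99).

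**Figure D4:**
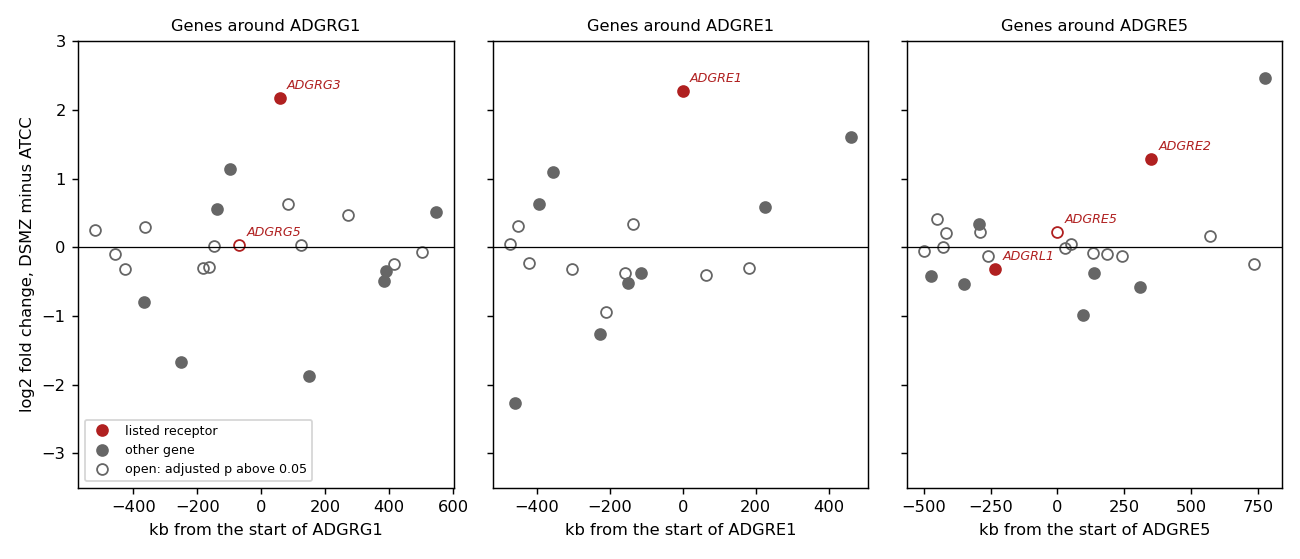
Log2 fold change, DSMZ minus ATCC, of tested genes by distance in kb from the start of ADGRG1, ADGRE1 and ADGRE5, listed receptors in red. Filled points passed an adjusted p of 0.05, and neighbours fall on both sides of 0 in each panel.

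Of the 12 myeloid markers 5 passed edgeR's adjusted p of 0.05, 2 higher in DSMZ and 3 higher in ATCC, beside 49.8% of all tested genes. The number was 8 without ATCC replicate 2, 3 without ATCC replicate 3, 2 without DSMZ replicate 1, and 3 without DSMZ replicate 2 or 3. Calls over all genes moved with the same settings, from 7261 to 9511, 5882, 5778, 5506 and 5665 in that order. The T-cell co-receptor and monocyte antigen CD4 rose (0.78, SE 0.11, edgeR adjusted p 0.000795) and the sialic acid receptor CD33 fell (-1.31, SE 0.11, edgeR adjusted p 8.19e-05). Of 43 markers of other cell types 14 were tested and 6 (42.9%) passed, 3 in each direction. Over all tested genes 49.8% passed, 24.1% higher in DSMZ and 25.7% higher in ATCC. The eosinophil peroxidase EPX had 3 counts over the ATCC libraries and 84 over the DSMZ libraries. B cell markers summed to 5.38 to 6.96 CPM in ATCC and 10.1 to 11.1 CPM in DSMZ with MS4A1 at 0, and NK cell markers to 7.17 to 9.09 CPM and 3.86 to 6.28 CPM. Their part in the receptor levels was not tested.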

How the data were processed

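Poly(A) RNA of 3 ATCC and 3 DSMZ cultures was sequenced from stranded KAPA libraries, per the labels' protocols. kallisto 0.43.0, Trimmomatic 0.35, bcl2fastq 2.20 and the build GRCh38 are named, per the submitters' processing notes. The annotation release, and whether kallisto used strand, are not given in the sources used here, so a receptor gene and an overlapping gene on the other strand may not be told apart. The authors deposited, per the file headers, an estimated count and a TPM for each transcript, neither of them whole-number read counts. TPM as deposited is scaled by transcript length within each library.

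Of 179973 transcripts, 163714 (91.0%) matched GENCODE 29 by ID and 14222 by gene symbol. The rest (0.181 to 0.199% of counts) were left out. Estimated counts were summed over each of 34893 genes and rounded. edgeR 4.0.16 (filterByExpr, TMM, quasi-likelihood test) in R 4.3.3 tested 14569 genes with Benjamini-Hochberg adjustment at 0.05. Each SE was taken as the size of the log2 fold change over the root of its F statistic. P-values measure the spread between the 3 expansions of a bank. On simulated counts for this comparison over 14386 genes, the calls held 5 of the 67 simulated at 1.5-fold, 45 of the 67 at 2-fold and 58 of the 66 at 4-fold, with 10 false calls. The simulation changed few genes, while 49.8% were called in the data. Its noise was independent between genes, without the GC shift of ATCC replicate 2. These numbers therefore do not carry over to the data. CPM is the count scaled to library size times its TMM factor.

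The receptors, the gene lists and the naming rule were chosen with earlier results of these data known. The naming rule selected all 10 receptors, named partners, and up to 3 called genes at each end of every list. Some of the called genes it selected are not named in the text. ADGRL2, CHPF, CHST3 and CHST11 were named after their values were seen. The count of 1 further gene list is not reported here. The 19 alternatives were other scalings, DESeq2 1.42.0, limma 3.58.1, filters, transcript sets, a GC offset, a replicate block and each library left out. Figures used matplotlib 3.10.9.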

Additional observations from a re-analysis of the deposited data

How the results depend on the processing

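Over 19 alternatives the count of all genes called, 7261 as reported, stayed within 1.5 times, from 5506 without DSMZ replicate 2 to 9511 without ATCC replicate 2. The naming rule selected 40 called list genes, some of them not named in the text. Of their 756 values, 720 kept direction and side of the threshold, 36 kept direction only and 0 reversed. Among the listed receptors the sign changed for ADGRG5 only. Same-numbered libraries of the banks correlated at 0.009, 0.067 and 0.147, and differently numbered ones at -0.101 to 0.022. Correlations this small do not decide whether the replicate numbers pair the libraries. With the replicate block 7012 genes were called. The block lost the ADGRL1 call. Near the 3 ADGRG genes on chromosome 16, leaving out 1 library gave 5 to 10 calls (8 as reported). Near the E group genes on chromosome 19 it gave 9 to 22 (15 as reported), protein-coding transcripts only gave 9, and the replicate block with the GC offset 23. For the myeloid markers it gave 2 to 8 (5 as reported), the GC offset 8 and the replicate block with the GC offset 10. Calls over all genes were 6253 with protein-coding transcripts only, 9393 with the GC offset and 9378 with the replicate block and the GC offset. The cause of these changes was not tested. ADGRE3 and ADGRG1 had too few counts for a test, and ADGRG3 was not tested at a minimum of 1 CPM or with protein-coding transcripts only. ADGRE5 was called with the GC offset and without ATCC replicate 2.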
